A study of Mus musculus with 12 samples.

Results

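Replication-dependent histone genes encode the linker histone H1 and the core histones H2A, H2B, H3 and H4 that package newly made DNA. The 62 protein-coding genes with the mouse symbols H1f1 to H1f5, or with a symbol that starts with H2ac, H2bc, H3c or H4c and a number, were taken from the 27179 gene IDs of the count tables. They were chosen by name alone, 5 for H1, 17 for H2A, 16 for H2B, 12 for H3 and 12 for H4. In the RefSeq gene table of GRCm38.p6, 52 lay on chromosome 13 and 10 on chromosome 3.

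The series measured RNA in sucrose gradient pools of livers from male C57BL/6 mice. Each liver gave a heavy polysome library and a light polysome library, and the labels do not say which of the pooled fractions, 2 to 7 or 8 to 13, is which. Wild-type mice ate chow (3 animals, chow 1 to 3) or a ketogenic diet (2 animals, keto 1 and 2; 24 h by the protocol, though the time label of every sample reads 0 h), and a single chow-fed mouse carried eIF4E S209A/S209A, a change of the serine in the cap-binding protein that the MNK kinases phosphorylate. Every library held RNA of a heavy or a light pool of whole liver, and none held unfractionated RNA. From these levels, fewer cells that hold histone mRNA, less histone mRNA per cell and mRNA lying in other fractions cannot be told apart.

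Histone mRNAs of this class are made in S phase, when DNA is copied, and are removed when replication ends. They typically lack introns and a poly(A) tail, and end in a stem-loop that the protein SLBP binds for processing, translation and decay. H2bc4 and H2bc6 span 8282 and 37455 bases in RefSeq, against a median of 487 among members of at most 1000 bases. Which transcript forms of these genes were counted was not tested. A library kit for total RNA, as used here, can take them up, while selection for poly(A) would lose them. Adult liver holds few dividing cells, so the class is usually scarce there.

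Library totals ran from 3341046 to 13263355 counts, of which nuclear protein-coding genes held 4.09% to 39.3%. The histone genes held 10847 counts over all 12 libraries, 446 (keto 1 light) to 2022 (chow 2 heavy) in each. Hepatocyte genes stood far above those of other liver cells, with 12 of 12 markers measured and a summed level of 6383 to 16770 CPM, the usual depth-scaled count, taken on the TMM-scaled library size. Kupffer cell, sinusoidal endothelial and stellate cell markers summed to 37.6 to 161 CPM, and 7 of 10 neutrophil markers were at 0 throughout. The libraries of chow 3 and S209A stood apart by their titles, which read fed where the others read chow or keto. Per the file headers their counts came from HISAT2 alignments. Those of chow 1 and 2 came from Bowtie2 alignments, and those of keto 1 and 2 from an aligner the headers do not name.

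Promoter stretches of 5 members show motifs of the class and how alike some of its promoters are. Transcribed sequences were not compared, so likeness of promoters does not show whether reads of such genes can be told apart. Each stretch holds the 150 bases before the RefSeq start site on the gene's own strand in GRCm38.p6, with matches in capitals to CCAAT, to the TATA box TATAAA and to the octamer ATTTGCAT, searched on both strands. H2ac18 and H2ac19 are shown because they are duplicated H2A genes and H2ac18 is the one member called below, H2bc8 because it holds all 3 motifs, and H4c8 and H1f4 as the most abundant H4 and H1 genes. They lie at chr3:96245347-96245496 (H2ac18, plus strand), chr3:96240375-96240524 (H2ac19, minus), chr13:23571250-23571399 (H2bc8, plus), chr13:23530894-23531043 (H4c8, plus) and chr13:23622559-23622708 (H1f4, minus).
H2ac18: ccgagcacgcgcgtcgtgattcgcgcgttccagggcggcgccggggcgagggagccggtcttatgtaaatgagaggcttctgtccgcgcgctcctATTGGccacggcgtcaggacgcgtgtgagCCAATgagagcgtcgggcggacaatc
H2ac19: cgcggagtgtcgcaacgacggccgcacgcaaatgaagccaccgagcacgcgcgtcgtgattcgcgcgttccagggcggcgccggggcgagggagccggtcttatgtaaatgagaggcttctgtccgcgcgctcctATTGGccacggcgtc
H2bc8: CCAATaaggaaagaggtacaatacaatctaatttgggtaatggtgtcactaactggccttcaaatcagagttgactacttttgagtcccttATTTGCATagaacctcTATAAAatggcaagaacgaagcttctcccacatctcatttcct
H4c8: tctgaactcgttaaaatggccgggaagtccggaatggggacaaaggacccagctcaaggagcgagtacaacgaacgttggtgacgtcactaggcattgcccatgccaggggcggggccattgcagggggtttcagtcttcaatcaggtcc
H1f4: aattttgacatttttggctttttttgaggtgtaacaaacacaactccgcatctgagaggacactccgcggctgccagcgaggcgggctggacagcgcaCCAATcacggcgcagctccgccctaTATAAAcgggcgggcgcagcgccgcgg
The H2ac18 and H2ac19 stretches share a run of 110 identical bases.

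Over the RefSeq promoter windows of 300 bases (250 before and 50 from the start site on), 57 of the 62 members had an entry, with 58 windows in all. CCAAT was found in 86.2% of the members' windows and in 37.4% of all 32851 windows of the same length. TATAAA was found in 58.6% and 13.6%, and ATTTGCAT in 22.4% and 1.74%. The octamer, which binds the transcription factor OCT1 in H2B promoters, was found in 7 of 15 H2B and 6 of 17 H2A windows and in 0 of the H1, H3 and H4 windows. CCAAT was in all windows of H1, H2A, H2B and H3 but in 3 of 11 of H4. A match is a description of these letters, and the 3 motifs did not overlap one another in the stretches printed.

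In 9 pairs an H2A and an H2B gene started on opposite strands within 500 bases of each other, 164 to 281 bases apart. Some pairs were counted nearly alike, such as H2ac12 with 17 and H2bc12 with 19 counts over all libraries, and others were not. H2bc8 held 225 counts and its partner H2ac8 held 23, at start sites 180 bases apart. In the pair H2bc1 and H2ac1, known as testis-specific histones, the counts were 18 and 0.

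Few members carried the signal. The 9 with most counts (H1f4, H4c8, H1f2, H2bc4, H2ac18, H2ac19, H4c3, H4c4 and H2ac20) held 79.5% of the histone counts. Only 10 members had a count in all 12 libraries, 38 held fewer than 50 counts in all, and H2ac1 and H2ac10 held 0. The filter on low counts kept 30 of the 62 members, 3 of H1, 5 of H2A, 7 of H2B, 5 of H3 and 10 of H4, and the statements on tested members cover these alone.

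Per kilobase of gene, over the mean of the 12 libraries and among members with a span of at most 1000 bases (5 longer ones, H2bc4 among them, have no such value), the nucleosome core gene H4c8 stood highest at 40.3 CPM per kb, before the H2A gene H2ac18 at 27.5, the linker histone H1f4 at 24.7, H2ac19 at 23.6, the linker histone H1f2 at 19.6 and H4c3 at 18.1. The most abundant H3 gene, H3c6, stood at 2.00 CPM per kb. Within the chow heavy libraries levels varied widely between animals, as with H4c8 at 27.8 ± 16.4 CPM and H1f4 at 25.1 ± 14.2 CPM (SD, n = 3, not per kb). Per kb these chow heavy means were 63.9 and 32.1, and differences between neighbours in the order were not tested. The order is not that of every library: in the 4 of chow 3 and S209A, H2ac18 and H2ac19 lay below H1f4, H1f2 and H4c3.

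The summed level of all 62 genes was highest in heavy polysomes of chow 1 and chow 2. It was 369 CPM in chow 1, 293 in chow 2 and 50.01 in chow 3 in the heavy pool, and 139, 72.1 and 70.9 in the light pool. The ketogenic diet animals held 75.8 and 133 CPM in heavy and 85.0 and 159 in light. The S209A animal held 102 CPM in heavy and 178 in light. Heavy was therefore above light in chow 1 and 2 and below it in the other 4 animals. Set against nuclear protein-coding counts in place of the TMM scale, the sums were 238 (chow 1 heavy) and 137 (chow 1 light), 176 and 58.3 (chow 2), 38.6 and 56.3 (chow 3), 64.9 and 70.2 (keto 1), 125.2 and 125.9 (keto 2), and 73.8 and 109 (S209A) per 100000, with keto 2 then nearly equal.

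**Figure D1:**
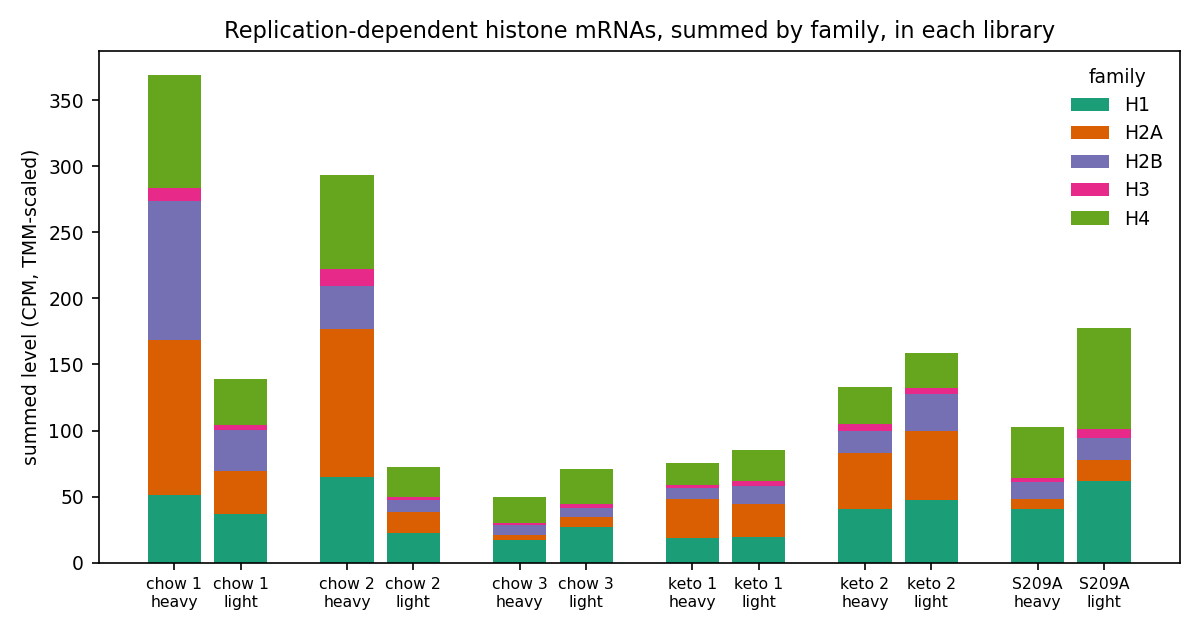
Stacked bars give the summed level (CPM of the TMM-scaled library size, linear axis from 0) of the H1, H2A, H2B, H3 and H4 genes in each of the 12 libraries, 1 heavy and 1 light bar per animal. Chow 1 heavy (369 CPM) and chow 2 heavy (293 CPM) are the tallest bars, and the H2A part is small in chow 3 and S209A.

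The mix of histones also set the libraries of chow 3 and S209A apart from the others. These share both the aligner of their headers and the title word for feeding, so the aligner and other shared traits cannot be told apart. H2A genes held 21.9% to 39.0% of the histone counts in the 8 libraries of chow 1, chow 2, keto 1 and keto 2, and 7.84% to 10.1% in the 4 libraries of chow 3 and S209A. H4 genes held 16.5% to 30.9% in the first and 36.9% to 43.2% in the second, and the 2 ranges did not overlap in either family. H3 genes held 2.33% to 4.84% in every library.

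Most of the H2A gap lay in genes whose promoters share long runs. In 4 pairs of members (H2ac18 with H2ac19, H4c17 with H4c18, H2ac23 with H2ac24, H3c14 with H3c15) the promoter windows shared a run of at least 200 bases, where the median pair of members shared 8. These 8 genes held 20.5% to 34.2% of the histone counts in chow 1, chow 2, keto 1 and keto 2, and 0.989% to 2.90% in chow 3 and S209A. In heavy polysomes the counts of H2ac18 and H2ac19 added up to 384 (chow 1), 634 (chow 2), 144 (keto 1) and 179 (keto 2), and to 8 in chow 3 and 20 in S209A. The 4 pairs were picked after these values were seen. The shared runs are mostly sequence before the start site, and the transcripts themselves were not compared. How reads that align to several places were treated is not given in the sources used here, and its part in the gap was not tested.

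**Figure D2:**
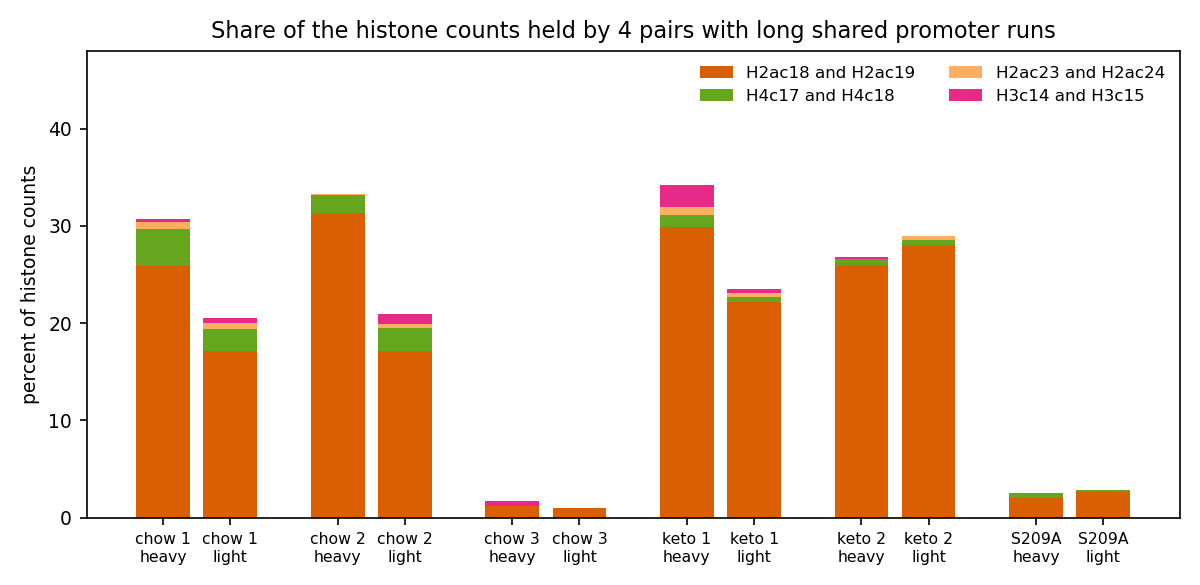
Bars give the percent of all histone counts in each library held by 4 pairs of genes whose promoter windows share at least 200 bases in a row, stacked by pair (linear axis from 0). The pairs hold 20.5% to 34.2% in the libraries of chow 1, chow 2, keto 1 and keto 2 and 0.989% to 2.90% in those of chow 3 and S209A, mostly through H2ac18 and H2ac19.

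The first comparison asks which mRNAs sit in heavy rather than light polysomes of chow-fed livers. H2ac18, a replication-dependent H2A gene, rose in heavy over light and was the only histone gene past the threshold. Its level was 47.9, 47.1 and 0.583 CPM in heavy polysomes of chow 1, 2 and 3, and 13.7, 7.76 and 0.156 CPM in the light ones. Heavy was above light in each animal, while chow 3, with 8 and 2 counts, lay far below the other two in both pools. The fitted difference was log2 2.14 ± 0.48 (SE, n = 3 animals, edgeR's quasi-likelihood test with Benjamini-Hochberg adjustment over 10555 genes, adjusted p = 0.00770). That made 1 of 30 tested members called, against 0.227% of all genes tested, and 5 of 30 at an unadjusted p under 0.05, against 6.96%.

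The call on H2ac18 was lost without chow 1 or chow 2: the edgeR adjusted p was 0.14 without chow 1 (log2 2.42) and 1 without chow 2 (1.78). It was 0.999 without the animal as a block (2.16) and 0.156 among genes with a mean of at least 50 counts (1.98). Without chow 3 edgeR called 5 members, H2ac18, H2ac19, H2bc4, H2bc8 and H4c8, all higher in heavy, while 3.97% of all genes were called.

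Its copy H2ac19 had 47.4, 44.8 and 0 CPM in heavy and 10.1, 4.60 and 0.545 in light. Chow 1 and 2 were high in heavy, and chow 3 was at or near 0 in both pools. H2ac19 stood at log2 1.93 ± 0.52 and did not pass over all 3 animals (edgeR adjusted p = 0.0751), but limma-voom called it together with H2ac18, where it called 0.303% of all genes. With the counts of both copies added, log2 heavy over light was 2.00 in chow 1, 2.90 in chow 2 and -0.27 in chow 3.

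H4c8, which encodes the core histone H4, had 36.7, 37.7 and 8.89 CPM in heavy and 13.1, 4.46 and 9.97 in light. Heavy was above light in chow 1 and 2 and slightly below in chow 3, and the fitted difference of 1.44 ± 0.43 did not pass (edgeR adjusted p = 0.130). H2bc4, the most abundant H2B gene, had 48.2, 20.2 and 6.34 CPM in heavy and 14.96, 7.33 and 4.83 in light, above in every animal, at 1.19 ± 0.43 (edgeR adjusted p = 0.321). H2bc8, the H2B gene with the octamer above, had 29.3, 5.51 and 0.219 CPM in heavy and 4.70, 0.287 and 0.312 in light, so that its difference of 2.34 ± 0.82 rested on chow 1 and 2 (edgeR adjusted p = 0.309).

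No linker histone gene passed. H1f4 had 27.6, 37.8 and 9.84 CPM in heavy and 22.4, 11.1 and 9.51 in light, at log2 0.70 ± 0.40 (edgeR adjusted p = 0.821). H1f2 stood at 0.36 ± 0.44 and was lower in heavy in chow 3, with 6.34 against 14.4 CPM. H1f3 stood at -0.26 and the H4 gene H4c4 at -0.066, the lowest among the members at or above median level, and both values changed sign in other fits. H3c6, the most abundant H3 gene, had 2.48, 4.64 and 0.875 CPM in heavy and 2.09, 0.287 and 1.71 in light, and stood at 0.82 ± 1.17. Among members at or above median level H2bc6 had the highest value, 2.60 ± 1.57, at 7.45, 1.45 and 0.437 CPM in heavy and 0.870, 0 and 0.312 in light. None of these passed.

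**Figure D3:**
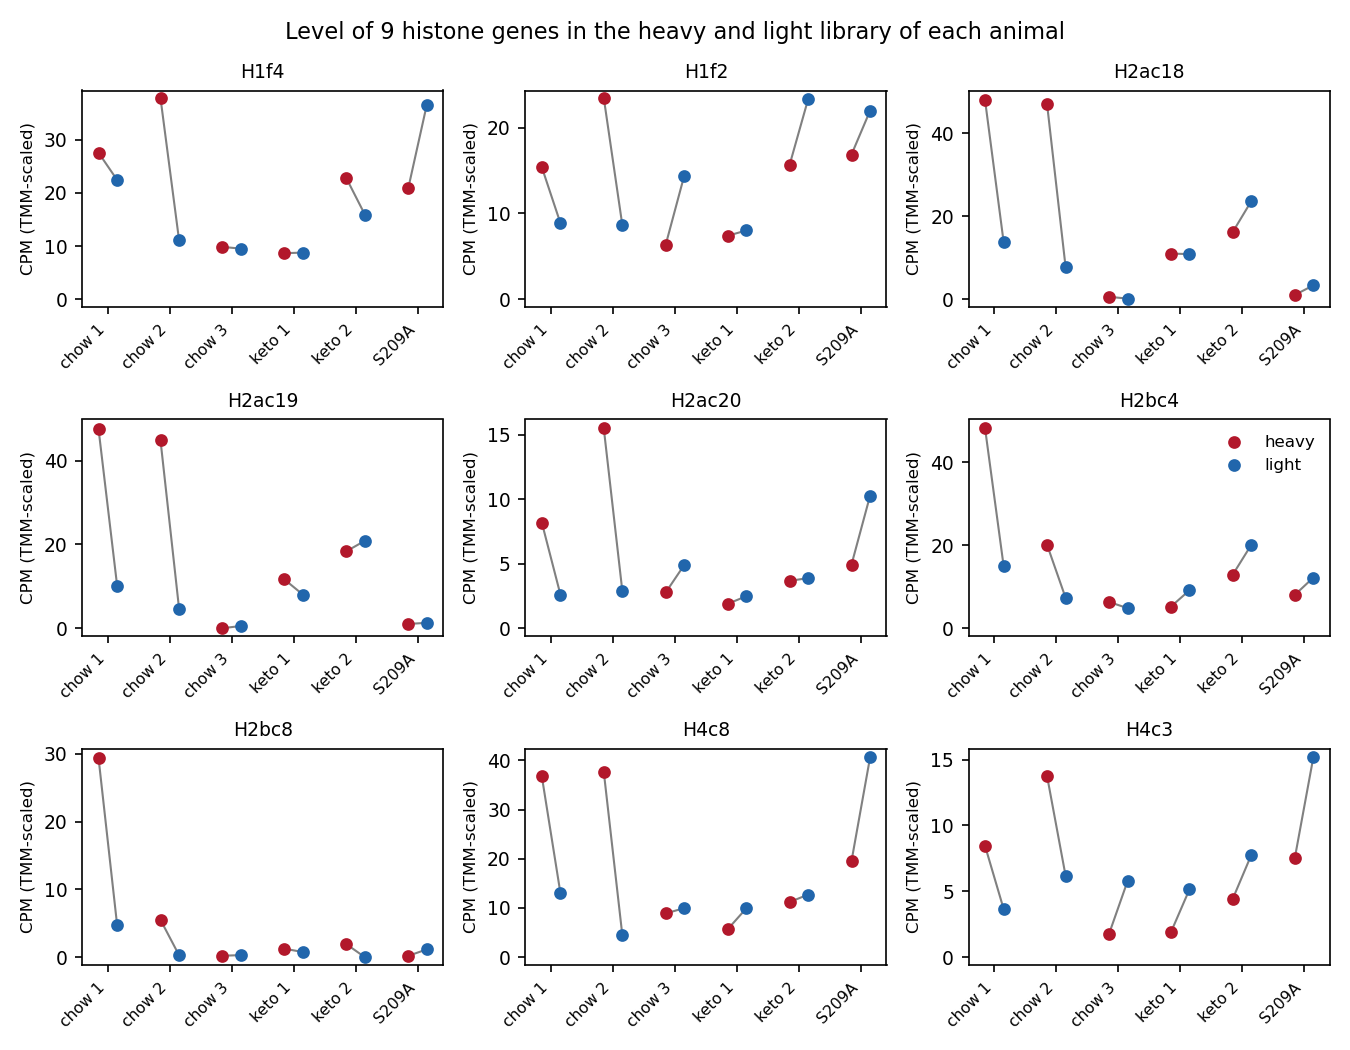
Each panel gives 1 histone gene, with its level (CPM of the TMM-scaled library size, linear axis) in the heavy (red) and light (blue) library of each of the 6 animals, joined by a line. The red points of chow 1 and 2 stand above the blue ones in all 9 panels, and in chow 3 and S209A H2ac18 and H2ac19 lie at or near 0.

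By animal, the histone genes split chow 1 and 2 from chow 3. The median log2 heavy over light of the 30 tested members (CPM with a prior count of 2) was 1.496 in chow 1 and 1.81 in chow 2, and -0.23 in chow 3, where all tested genes had medians of -0.056, -0.083 and -0.003. In chow 1, 27 of 30 members were higher in heavy, and 20 of them more than 2-fold, against 46.2% and 21% of all genes. In chow 2 the numbers were 25 and 20, against 45.9% and 16.3%. In chow 3 they were 8 and 0, against 48.6% and 10.3%, with 17 lower in heavy. H2bc23, H3c2, H3c7, H4c17 and H4c18 had 0 counts in both pools of chow 3 and so carry no ratio there. Among those lower, H2ac6, H2ac19, H2bc3, H2bc9, H2bc18, H3c3, H3c4 and H4c2 had 0 heavy and 2 to 8 light counts. Higher in heavy in all 3 chow animals were 6 of 30 (H1f4, H2ac18, H2bc4, H2bc6, H4c1, H4c12), or 20% against 12.2% of all genes, and lower in all 3 were 0 against 16%. H3c2, H4c1 and H4c17 passed the filter only through heavy libraries of chow 1 and 2, so it set their place in these counts in part.

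**Figure D4:**
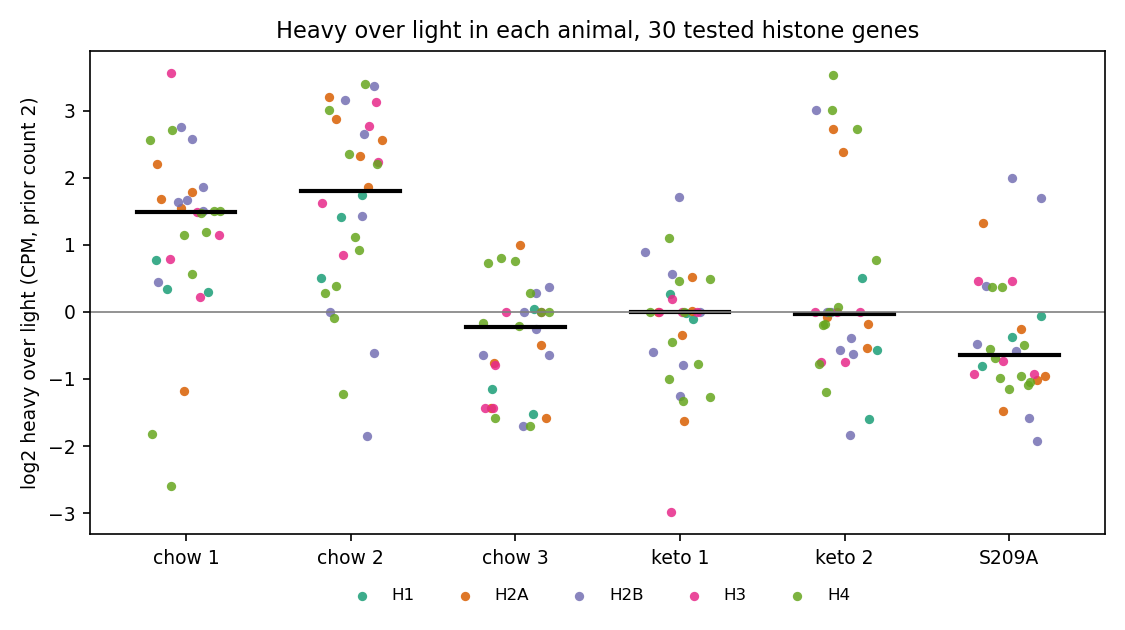
Each point is 1 of the 30 tested histone genes, at its log2 heavy over light in 1 animal (y axis, CPM with a prior count of 2; points are spread sideways for legibility), coloured by family, and the black bar is the median. The medians are 1.496 and 1.81 in chow 1 and 2, -0.23 in chow 3, 0 and -0.039 in keto 1 and 2, and -0.64 in S209A.

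Over the fitted values, 24 of 30 members were positive, with a median of log2 0.93 against -0.093 over all genes. The median was 0.329 without chow 2 and 1.71 without chow 3. H3c2, H4c1 and H4c17 passed the filter only through heavy libraries of chow 1 and 2, so their direction was set in part by it. With no count filter 43 of 60 members were positive, with a median of 0.853 against -0.081 over all genes. Without H2ac18, H2ac19 and H2bc8, 21 of 27 were positive with a median of 0.817, and the summed counts gave log2 heavy over light of 1.15, 1.72 and -0.51 in chow 1, 2 and 3. Every tested H2A and H3 gene was positive (5 of 5 in both), as were 5 of 7 of H2B, 7 of 10 of H4 and 2 of 3 of H1. The family medians were 1.09 for H2A, 1.19 for H2B, 0.82 for H3, 0.999 for H4 and 0.36 for H1. Summing counts by family before the fit, which keeps reads of copies together, gave 1.38 ± 0.41 for H2A, 1.29 ± 0.40 for H2B, 0.88 ± 0.38 for H4, 0.64 ± 0.65 for H3 and 0.45 ± 0.38 for H1 (SE). The direction of the H1 sum in chow 1 depended on the scale, with log2 heavy over light of 0.50 on the TMM scale and -0.12 per protein-coding count.

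Hepatocyte markers moved the same way, with 12 of 12 positive, a median of 0.89 and 1 called (Fgb). Their summed level in chow 1, 2 and 3 was 15170, 16770 and 9858 CPM in heavy and 6383, 10560 and 7698 in light, and the part of this shift in the histone values was not tested.

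In the ketogenic diet livers the histone genes showed no common shift between the pools. In edgeR 0 of 30 members were called, against 0.18% of all genes, with 0 at an unadjusted p under 0.05 (4.27% of all genes), and DESeq2 and limma-voom also called 0. The fitted values were positive in 13 and negative in 14, with a median of 0 against 0.026 over all genes. This median is set by H3c2, H3c3 and H3c4, which had 0 counts in every keto library and so carry no ratio. The median was -0.31 in DESeq2 and -0.33 in limma-voom. Higher in heavy in both animals were 3 (H2bc8, H4c4 and H4c18), or 10% against 25.9% of all genes, and lower in both were 7 (H1f2, H2ac20, H2bc4, H2bc23, H3c7, H4c3 and H4c8), or 23.3% against 23.2%.

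H2ac18 had 11.01 and 16.2 CPM in the heavy libraries of keto 1 and 2 and 10.9 and 23.7 in the light ones, level in the first animal and lower in heavy in the second. H4c3, an H4 gene, had 1.89 and 4.44 in heavy and 5.15 and 7.78 in light, at log2 -1.11 ± 0.68, the lowest value among members at or above median level. H4c8 had 5.66 and 11.2 CPM in heavy and 9.91 and 12.7 in light. H1f3 stood at -0.73, H4c18 at 1.13 and H2bc8 at 1.83 ± 1.16, the last resting on 8 and 10 heavy counts and 4 and 0 light counts. None of these passed (edgeR adjusted p = 1).

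The difference between the diets in heavy over light was tested directly. No member passed in edgeR, with 0 of 30 against 0.189% of all genes, 4 of 30 at an unadjusted p under 0.05 against 6.04%, and 0 in limma-voom. DESeq2 called 0 and gave no adjusted p for 27 of the 30. H2ac18 differed by log2 -2.41 ± 0.69 (keto minus chow, edgeR adjusted p = 0.15), H4c8 by -1.93 ± 0.67 (0.483), H2bc4 by -1.91 ± 0.68 (0.510) and H2ac19 by -1.76 ± 0.73 (0.667). H4c4 had the highest value at 0.34 and H2bc6 the lowest at -3.02 among members at or above median level. Of the 30 members 25 were negative, with a median of -1.01 against 0.15 over all genes. With no count filter 16 of 60 members were positive, with a median of -0.968 against 0.247 over all genes.

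In 7 members (H2ac18, H2bc4, H2bc6, H2bc23, H3c7, H4c1 and H4c8) both keto ratios lay below all 3 chow ratios, 23.3% against 10.1% of all genes, and in 0 they lay above, against 13.1%. Some of these ratios were not measured. H2bc23 had 0 counts in both pools of chow 2 and chow 3, H3c7 in both of chow 3 and H2bc6 in both of keto 1. Their ratios of 0 there come from the prior count alone. H4c1 passed the filter only through heavy libraries of chow 1 and 2, so its place here was set in part by the filter. Without chow 3, edgeR called H2ac18, H2ac19, H2bc4 and H4c8 in this comparison, all lower in keto, while 2.08% of all genes were called, and the median moved to -2.25. The keto libraries do not share a header wording with any chow library, so diet and processing cannot be told apart.

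**Figure D5:**
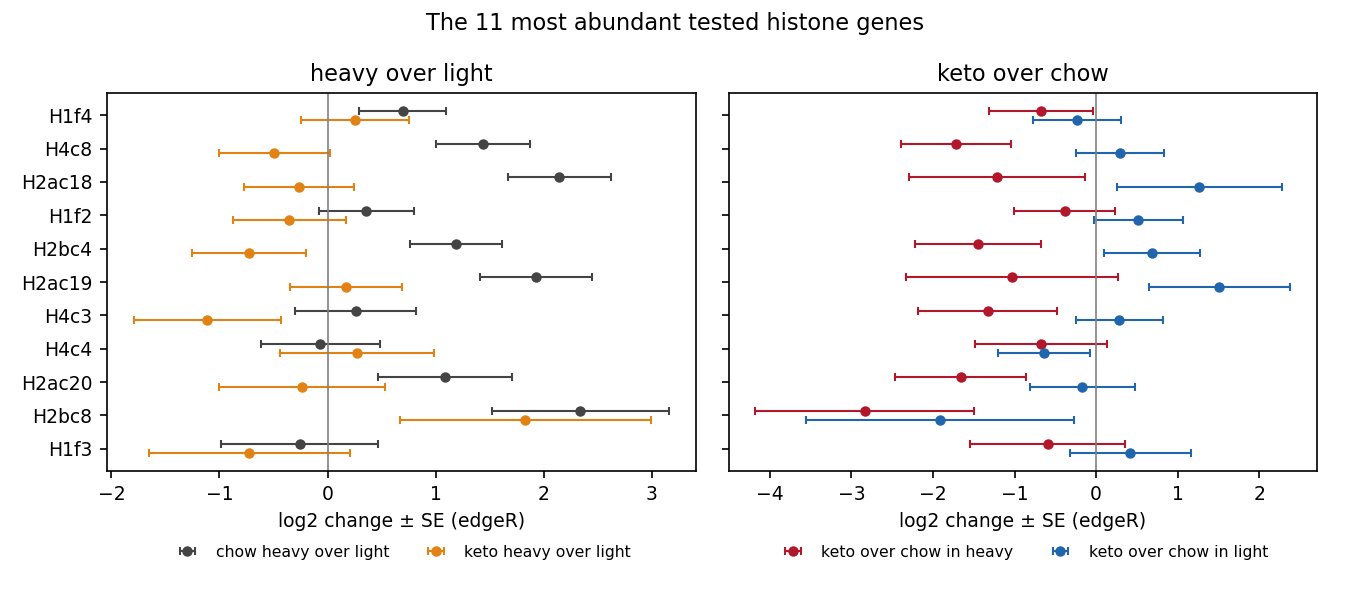
Points give the edgeR log2 change with its SE for the 11 most abundant tested histone genes, for heavy over light in chow (grey) and keto (orange) on the left and for keto over chow in heavy (red) and light (blue) on the right. Of the values shown, H2ac18 in chow heavy over light (2.14) is the one past the threshold, and the red points of all 11 genes lie below 0.

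Within the heavy pool no histone gene passed between keto and chow, and most fitted values were negative while the animals overlapped. In edgeR 0 of 30 were called (0% of 10552 genes), with 1 at an unadjusted p under 0.05, 3.33% of the members against 8.17% of all genes, and limma-voom and DESeq2 called 0, the latter with no adjusted p for 24. Values were negative in 29 of 30 (positive in 10 of 30 in limma-voom, with a median of -0.245), with a median of -1.68, or -1.27 with genes that were at 0 in a whole group set to the bound that 3 counts a library allow, against -0.044 over all genes. The median was -0.8 without chow 1 and -0.946 without keto 1. With no count filter 12 of 58 members were positive, with a median of -1.48. H3c2, H4c1 and H4c17 passed the filter only through heavy libraries of chow 1 and 2, so their negative values were set in part by it. H4c8 was at 5.66 and 11.2 CPM in keto and 36.7, 37.7 and 8.89 in chow, so that chow 3 lay between the keto animals, at log2 -1.72 ± 0.67 (edgeR adjusted p = 0.536). H2bc8 was at 1.26 and 1.93 CPM in keto and 29.3, 5.51 and 0.219 in chow (-2.84 ± 1.34), and H4c18 at 0.629 and 0.193 in keto and 6.95, 3.62 and 0 in chow (-2.99).

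The summed level of chow 3 (50.01 CPM) lay below those of keto 1 and 2 (75.8 and 133). Both keto values lay below all 3 chow values in 1 member (H4c1), 3.33% against 13.4% of all genes, and above them in 0 against 14.5%. H4c1 is among the members that passed the filter only through heavy libraries of chow 1 and 2. With the wording of the titles as a batch, which sets the keto animals against chow 1 and 2, edgeR called H4c8 and H2bc8 as lower in keto, where it called 1.19% of all genes, and with animals blocked by replicate number it called H4c8, where it called 0.787%. Hepatocyte markers lay lower too, negative in 12 of 12 with a median of -0.99, at 6588 and 7398 CPM summed in keto heavy, and their part was not tested.

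In the light pool, keto and chow overlapped. In edgeR 0 of 30 members passed (0% of 10551 genes), with 0 at an unadjusted p under 0.05 against 6.07% of all genes, and DESeq2 and limma-voom called 0. Values were positive in 12 and negative in 18, with a median of -0.23 (0 with genes at their bound) against -0.13 over all genes. The highest values at or above median level were those of H2ac19 (1.51), at 8.01 and 20.9 CPM in keto and 10.1, 4.60 and 0.545 in chow, and H2bc6 (1.30), and the lowest were H4c18 (-1.93) and H2bc8 (-1.91). The keto values lay below all chow values in 4 (H2bc3, H4c2, H4c4 and H4c6), 13.3% against 14.6% of all genes, and above in 1 (H3c7), 3.33% against 11.2%.

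The S209A animal, with 1 library per pool, gives values without a test. It is set beside chow 3, whose title words feeding the same way and whose headers name the same aligner. In the heavy pool 25 of 30 members were higher in S209A than in chow 3, with a median difference of log2 1.04 against -0.008 over all genes. More than 2-fold higher were 16, or 53.3% against 11.4% of all genes, while 3 were more than 2-fold lower, against 13%. Many of the 16 rest on few reads. H2ac6, H2ac19, H2bc3, H2bc9, H2bc18, H3c3, H3c7, H4c2 and H4c17 had 0 counts in chow 3 heavy and 4 to 10 in S209A heavy. In the light pool 21 of 30 were higher, with a median of 0.94 against -0.015. More than 2-fold higher were 11, or 36.7% against 13.3%, among them H2bc23 and H3c7 with 0 counts in chow 3 light. More than 2-fold lower were 3, against 19.2%.

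H4c8 had 19.5 CPM in S209A heavy and 40.6 in light, against 8.89 and 9.97 in chow 3. H1f4 had 20.9 and 36.6 CPM, against 9.84 and 9.51, and H4c3 had 7.51 and 15.2, against 1.75 and 5.77. These heavy levels lay below those of chow 1 and 2, and the light levels of all 3 genes lay above every chow light library. Measured against all 3 chow animals, 0 members were more than 2-fold above them in heavy (2.61% of all genes) and 2 more than 2-fold below (H4c1 and H4c12, 6.67% against 2.86%). In light 4 were above (H2ac20, H4c3, H4c6 and H4c8, 13.3% against 3.76%) and 0 below (10.2%).

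Between the S209A pools, 22 of 30 members were lower in heavy, with a median log2 of -0.64 against 0 over all genes. More than 2-fold lower were 7 (23.3% against 12.8% of all genes), H2ac18, H2ac20, H2bc8, H2bc23, H4c4, H4c6 and H4c8, and more than 2-fold higher were 3 (10% against 17.5%), H2ac6, H2bc9 and H2bc18. The ratios of H2ac18 (10 heavy and 26 light counts) and H2bc8 (2 and 9) rest on few reads.

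Other genes of histone biology gave no call in edgeR in any of the 5 comparisons. In chow heavy over light, 1 gene of the replacement histone list, 2 processing, 0 chaperone and 1 S phase gene had an unadjusted p under 0.05. The list of replacement histones, mostly variants made outside S phase from mRNAs with poly(A) tails, also held H2ax, H2aw, H2bu2 and H4f16. That description does not fully apply to these genes. Of the list 9 of 16 genes were tested, and in chow 8 of 9 were higher in heavy with a median of 0.39. These values are thus not a result on mRNAs with poly(A) tails alone. H1f0, the linker histone of resting cells and the most abundant gene of this list, stood at 0.39 ± 0.38 in chow heavy over light, with 12.7 to 35.0 CPM over the libraries. Factors of histone mRNA processing and decay had 19 of 22 tested and a median of 0.006 in chow, with the RNA helicase gene Upf1 most abundant at 28.3 CPM. Histone chaperones had 15 of 18 tested with a median of 0.15, led by Atrx at 32.8 CPM.

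Genes of dividing cells were scarce. DNA replication genes of S phase, such as Pcna and the Mcm helicase genes, had 16 of 26 tested, a median of 0.58 in chow heavy over light and 0.58 in keto, and a summed level of 12.8 to 31.0 CPM. In heavy, the S phase sums were 31.0, 18.99 and 26.9 CPM in chow 1, 2 and 3, so chow 3 was not the lowest in this list. Of 20 mitotic genes 2 were tested, 3 were at 0 throughout, and the list summed to 0.719 to 10.4 CPM, with Mki67 most abundant at 1.01 CPM. In heavy, the mitotic sums were 4.47, 2.90 and 1.24 CPM in chow 1, 2 and 3, and 8.96 and 10.4 in keto 1 and 2, the highest of all libraries. In light, they were 5.57, 0.719 and 3.51 CPM in chow 1, 2 and 3. These sums rest on few reads, and a link to the histone levels was not tested. Erythroid markers, among which Hba-a2 was lower in keto heavy than light (log2 -2.71 ± 0.65, edgeR adjusted p = 0.0218), summed to 3.72 to 125 CPM, highest in keto 2 light. Lymphocyte markers summed to 1.74 to 8.84 CPM and neutrophil markers to 0 to 1.14.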

How the data were processed

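The authors deposited 1 table of raw counts for each library, keyed by Entrez ID. The submitters' processing notes list build mm10 and the tools HISAT2, StringTie and Trimmomatic. For the counting tool, strand setting and versions, nothing is given in the sources used here. Per the file headers, aligners differed between animals. Of 27179 IDs, 25275 matched RefSeq's GRCm38.p6 table, which gave symbols, coordinates and promoters. There were 0 ERCC rows and 0 unused columns. Among genes with 1 to 20 counts, 62.9% to 90.1% of values were even, as when both mates of a read pair are counted, so counts are not independent molecules.

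Genes were kept by filterByExpr (minimum count 10, grouped by condition) and scaled by TMM. All tests were edgeR (4.0.16) quasi-likelihood tests, two-sided, adjusted over all genes at 0.05. Heavy over light took the 12 libraries together and blocked on the animal, since by their labels both pools came from 1 liver. Deviations from the chow mean correlated between the pools at r = 0.307, 0.305 and 0.463 in chow 1 to 3. Both pools of an animal also share an aligner, which differs for chow 3, so these values cannot show the pairing. Keto over chow used the 6 libraries of a pool. Each diet group is 2 or 3 livers, so p-values measure the spread between these few samples. SE is the log2 change over the root of F. Alternatives used DESeq2 (1.42.0), limma-voom (limma 3.58.1), other scalings, filters and blocks, and left out each animal. Data were also simulated from the mean levels and sizes of these libraries, with the same fixed spread for every gene and no animal effect. For chow heavy over light (8972 genes), 72.6% of changes of log2 2 and 6.67% of changes of log2 1 were recovered. For keto over chow in heavy (9055 genes) the shares were 47.3% and 3.37%. These shares do not measure the power for genes that differ more between animals, such as H2ac18.

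The members and gene lists were chosen with earlier results of these data known. Values per library are given for the most abundant member of each family, members past the threshold, and the 2 highest and 2 lowest per comparison at or above the members' median level. H1f2, H2bc4, H2ac19, H2ac20 and H4c3 elsewhere were added after their values were seen. Other lists give genes past the threshold and, for some, the most abundant; 1 such gene is not reported here.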

Additional observations from a re-analysis of the deposited data

Results flagged for a closer look

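H2bc4, the most abundant H2B gene, was higher in heavy in each chow animal (log2 1.67, 1.43 and 0.37 in chow 1, 2 and 3) and lower in heavy in both keto animals (-0.79 and -0.63). The fitted difference, keto minus chow, was -1.91 ± 0.68 and did not pass in edgeR (adjusted p = 0.510), and without chow 3 it was among the 4 members called. No group held more than 3 animals, so no search for outlying samples within a group was made.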

How the results depend on the processing

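Over the alternatives, 62 counts of histone genes called stayed within 1.5 times the main count and 11 did not, and 69 medians moved by less than the spread between animals and 9 by more. The cause of the shifts was not tested unless the setting itself shows it. For chow heavy over light (1 called) limma-voom gave 2, genes with a mean of at least 50 counts 0, and the fit with no replicate block 0. Counts halved gave 2 and tables without H2ac18, H2ac19 and H2bc8 gave 0, both chosen after seeing the data. Leaving out 1 animal gave 0 to 5 called and medians of 0.329 to 1.71. DESeq2 gave no adjusted p for any of the 30. The keto median (0) was -0.31 in DESeq2, -0.33 in limma-voom, -0.33 among genes with a mean of at least 50 counts (-0.326), -0.28 with counts halved, and -0.225 to 0 with 1 animal left out. The diet difference gave 0 to 4 called and medians of -2.25 to -0.25 with 1 animal left out. For keto over chow in heavy (0), medians with 1 animal left out ran from -2.21 to -0.8, the replicate block gave 1 (H4c8) and the title wording as a batch 2. In light, the median was 0.68 among genes with a mean of at least 50 counts and 0.38 without chow 3 and S209A, a setting chosen after seeing the data. Replicate numbers did not pair animals across diets (r = -0.015 in heavy and -0.028 in light), and the block changed no other count of calls there.

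Values that changed sign, none past the threshold, were those of H4c4 in chow (0.064 in limma-voom, 0.30 with no replicate block, and, with 1 animal left out, -0.73 to 0.46, with 0.0057 without chow 3) and in the diet difference (-0.041 with no replicate block, -0.18 without chow 2). H1f3 turned to 0.028 with no replicate block and ran from -0.70 to 0.42 (without chow 3) with 1 animal left out in chow, and from -1.70 to 0.30 (without keto 2) in keto. In limma-voom, H4c18 turned to 0.31 in heavy and 0.037 in light, and H2bc8 to 0.0068 in heavy. In light, with 1 animal left out, H2bc8 ran from -6.63 to 0.52 (without chow 1) and H2bc6 from -4.60 (without keto 2) to 2.43. Of the other log2 values, 201 kept direction and call, 3 passed and 4 no longer passed. Few reads limit most members, 38 of which held under 50 counts over 12 libraries.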

Other observations

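Slbp, whose product binds the histone stem-loop, was listed with 0 to 6 counts in each library of chow 1, chow 2, keto 1 and keto 2, and with 24 to 56 in each of chow 3 and S209A, singled out after its values were seen. Npm1, a histone chaperone gene, held 0 to 10 counts in the first 8 libraries and 137 to 240 in the other 4. H2ac18 and H2ac19 ran the other way. H3f3b, a replacement H3 gene, held 4 counts in keto 1 heavy and 0 in the other 11 libraries.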
